A study of Mus musculus with 3 samples.

Results

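Red cell barcodes were the droplets in which haemoglobin messages made up most of the RNA. A barcode stands for 1 droplet and so, as a rule, for 1 cell, and each unique molecular identifier (UMI) for 1 captured RNA molecule. A barcode was a member when Hba-a1, Hba-a2, Hbb-bs and Hbb-bt, the adult alpha and beta globin genes of the mouse, gave at least 50% of its UMIs. This held for 559 of the 4726 barcodes of the GFP-negative and RA libraries. There were 333 of 3276 in the GFP-negative library (10.2%, exact Clopper-Pearson 95% interval 9.15 to 11.3%) and 226 of 1450 in the RA library (15.6%, interval 13.8 to 17.6%). Members were divided at 500 detected genes into few-gene barcodes (226 GFP-negative, 139 RA) and many-gene barcodes (107 GFP-negative, 87 RA). Members were thus chosen by their globin share and classed by their number of genes, so both are given as descriptions only.

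The study profiled single cells from newborn hearts with 10x Genomics libraries, 3 in all with 8072 barcodes. Every animal was of the strain ICR, was 2 days old and carried HCN4H2BGFP, which marks nuclei of cells that use the pacemaker channel gene Hcn4 with green fluorescent protein (GFP). The GFP-positive and GFP-negative libraries held cells sorted by flow cytometry on that GFP. The cells of the library titled RA were unsorted, and its tissue label reads sinoatrial node region like that of the other libraries. Each group had 1 library, and the labels do not give the number of animals. No test between libraries was therefore possible, and the intervals below cover counting error only.

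A red cell precursor fills its cytoplasm with globin message, pairs globin chains with haem made in its mitochondria, and then loses its nucleus. The young cell that results, the reticulocyte, makes no new RNA and degrades its messages and organelles while it circulates. Messages still held at that stage therefore come from genes read before the nucleus left.

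Globin filled nearly all of a member's RNA or nearly none of another barcode's. At least 90% globin was found in 295 GFP-negative and 202 RA barcodes, and under 1% in 2907 and 1205. Between 10 and 50% lay 20 and 10 barcodes. Just inside the threshold, from 50 to 60%, were 4 GFP-negative and 2 RA barcodes, and just outside, from 40 to 50%, 1 and 4. The division by gene number had no such gap. From 450 to under 500 genes there were 23 GFP-negative and 13 RA members, and from 500 to under 550 there were 11 and 20. The libraries shared 9 barcode sequences, of which 1 was a red cell barcode in both.

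Few-gene members were shallow as well as poor in genes. Their median depth was 7093 UMIs in the GFP-negative library and 7667 in the RA library, against 16604 and 16220 in many-gene members. The ranges overlapped, at 2546 to 16314 UMIs in few-gene and 3107 to 28755 UMIs in many-gene GFP-negative members. Beside globin a median of 387.5 and 467 UMIs was left in few-gene members, and 1324 and 1281 in many-gene members. Across members the number of genes followed the UMIs beside globin with a Spearman coefficient of 0.988 (333 GFP-negative barcodes) and 0.991 (226 RA barcodes), values that share the same molecules and carry no test. When each barcode was thinned to 1000 UMIs, the median was 52.5 and 54 genes in few-gene members and 77 and 73 in many-gene members. Thinning left a median of 55 and 57 UMIs beside globin in few-gene members and 82 and 78 in many-gene members. These gene numbers are close to those UMIs, so they do not compare the classes at equal depth beside globin. Within the few-gene class the thinned median did not follow the gene number: in the GFP-negative library it was 53 at 100 to 199 genes and 55 at 400 to 499. It stood at 66 from 500 to 699 genes, 88.5 from 700 to 999 and 99 from 1000 to under 1500.

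**Figure D1:**
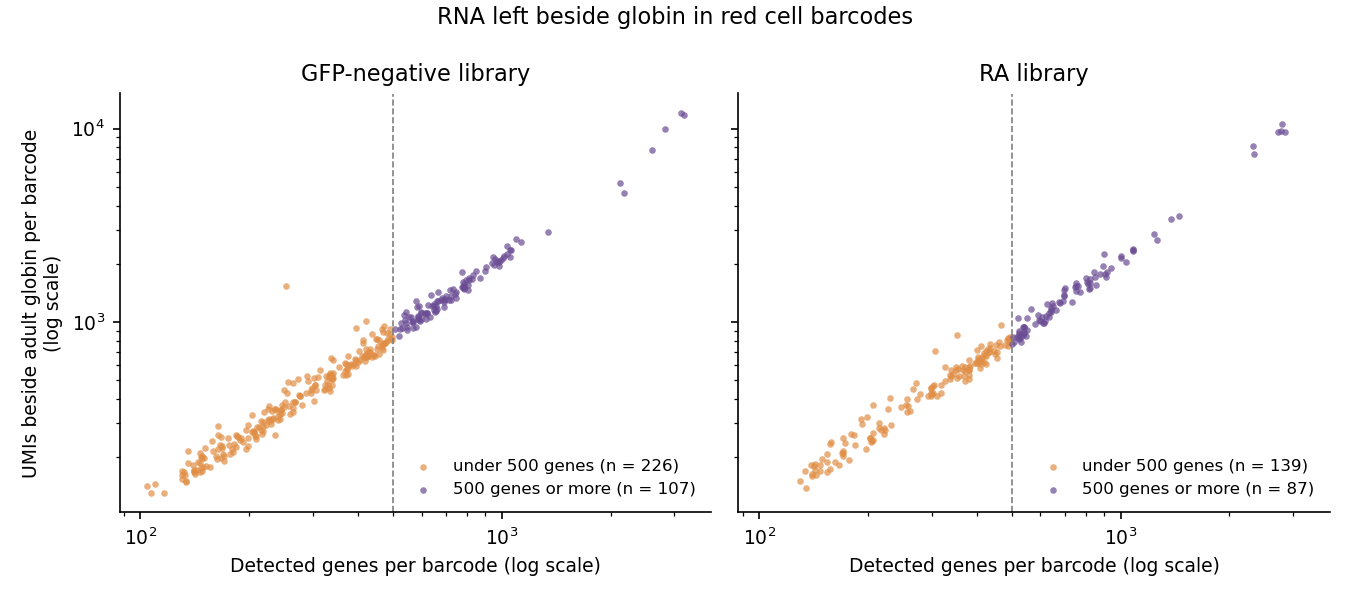
UMIs beside the adult globins against detected genes for each red cell barcode, both on log scales, in the GFP-negative (333) and RA (226) libraries. Points form 1 continuous band across the dashed line at 500 genes, and 6 barcodes in each library stand apart above 1500 genes.

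Of the 4 genes that label the class, Hba-a1 and Hbb-bs were abundant by the choice of members. Alas2, the erythroid form of the first enzyme of haem synthesis, had a UMI in 87.2% of few-gene and 99.1% of many-gene GFP-negative members, and in 86.3% and 100% of RA members. In the other barcodes of the libraries, where free RNA can give a UMI, the shares were 11.2% and 20.1%. Car2, the carbonic anhydrase of red cells, was rare in the few-gene class. It had 19 UMIs in GFP-negative few-gene members, of which 1 barcode supplied 63.2%, and 10 in RA few-gene members. Per UMI beside globin its level was still above that of the other barcodes: 190 and 156 counts per 1000000 against 5.65 and 10.7. In many-gene members Car2 stood at 818 and 1162. A UMI of Car2 was found in 2.21% and 3.60% of few-gene members, 27.1% and 26.4% of many-gene members, and 3.94% and 5.39% of the other barcodes. After thinning to 1000 UMIs the shares were 0.885% and 2.88%, 6.54% and 9.20%, and 0.510% and 0.572%. Thinning sets the same total but leaves a median of 55 and 57 UMIs beside globin in few-gene members against 997 and 996 in the other barcodes, so neither set of shares compares members with other barcodes at equal depth beside globin.

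The 4 adult globins were not used in equal proportion by the classes. Alpha to beta globin UMIs stood at 1.21 (exact 95% interval 1.21 to 1.22) in few-gene and 0.876 (0.873 to 0.878) in many-gene GFP-negative members. The RA library gave 1.15 (1.14 to 1.15) and 0.876 (0.873 to 0.879). Summed over barcodes, few-gene members thus held more alpha than beta message, and many-gene members less. Single few-gene members varied, with a median ratio of 1.18 and 1.10 and a lower quartile of 0.981 and 0.966, so some held less alpha. Hbb-bt made up 12.9% of beta globin UMIs in few-gene and 21.7% in many-gene GFP-negative members, and 12.4% and 20.6% in RA members. Along the gene number the change was gradual. The Hbb-bt share of GFP-negative members was 6.86% at 100 to 199 genes, 8.49% at 200 to 299, 12.1% at 300 to 399, 17.7% at 400 to 499 and 21.5% at 500 to 699. From there it lay between 21.2 and 23.7%. The alpha to beta ratio fell by bin from 1.59 to 0.917 over the same range, and lay between 0.828 and 0.866 above 700 genes.

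Globin in the other barcodes, all below the threshold, gave alpha to beta ratios of 0.775 and 0.749 and Hbb-bt shares of 12.4% and 13.1%. Hbb-bs and Hbb-bt have closely similar messages, as do Hba-a1 and Hba-a2, so the counting could divide reads between copies. Hba-a2 accounted for only 0.635% and 1.07% of alpha globin UMIs in few-gene members.

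A set of shallow members leaned far to the alpha side. Chosen after the values were seen, 25 GFP-negative members (24 of them few-gene) and 10 RA members (all few-gene) had an alpha to beta ratio above 3. Their median depth was 3307 and 4969.5 UMIs, against 7435 and 8359 in the other few-gene members. Alas2 had a median of 0 UMIs in the GFP-negative set and 1.5 in the RA set, against 11 and 14 in the other few-gene members. The ferritin light chain gene Ftl1 was still present, with medians of 9 and 18.5 UMIs against 15 and 16.

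**Figure D2:**
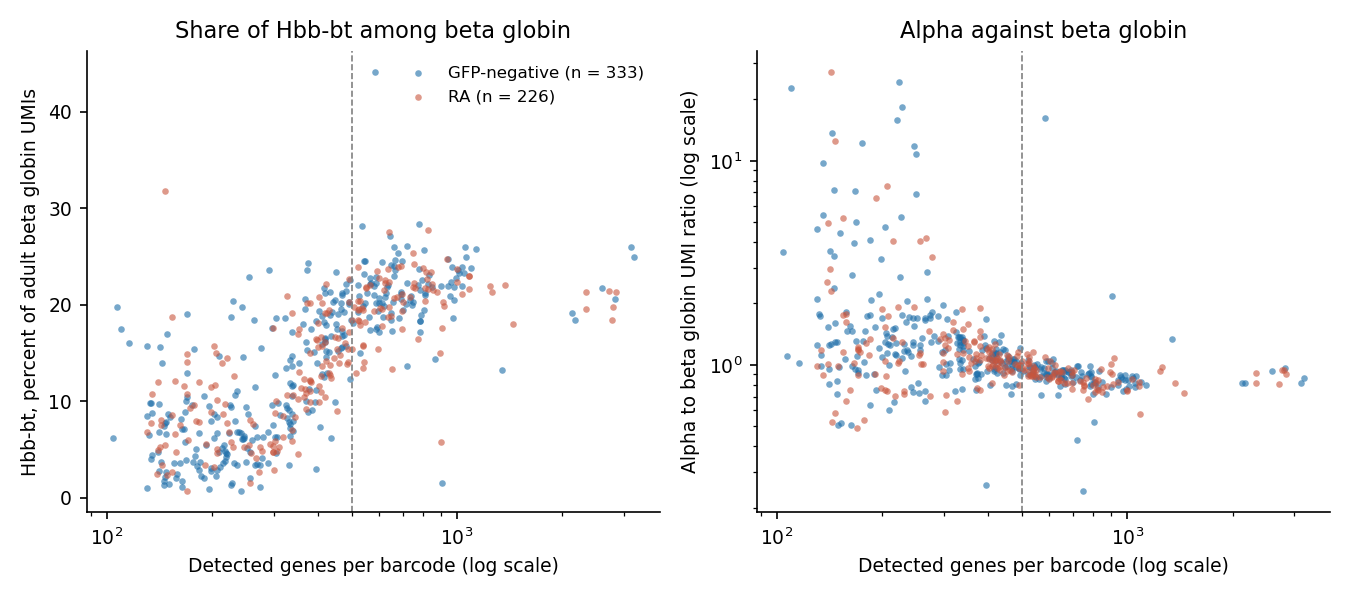
Hbb-bt as percent of adult beta globin UMIs (left) and the alpha to beta globin UMI ratio on a log scale (right) against detected genes per red cell barcode, log scale, coloured by library. The Hbb-bt share climbs with gene number up to the dashed line at 500 genes and is level beyond it, and ratios above 3 lie almost wholly on the few-gene side.

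The start regions of the paired beta globin genes are shown because the Hbb-bt share was the globin measure that followed gene number most closely (Spearman 0.773 and 0.785, against -0.586 and -0.500 for the alpha to beta ratio), and that of Alas2 because it was first or second in every class among messages beside globin that are neither ribosomal nor mitochondrial. The sequences are the 120 bases before the annotated start, from RefSeq on GRCm38.p6, written 5′ to 3′ on the gene's strand: Hbb-bs at chr7:103827929-103828048 and Hbb-bt at chr7:103813924-103814043, both on the minus strand, and Alas2 at chrX:150547297-150547416 on the plus strand. Capitals mark 4 motifs on either strand: the CCAAT box, the CACCC box, and the GATA motifs, searched as AGATAA and as TGATAA. All are well-known elements of red cell promoters.
Hbb-bs: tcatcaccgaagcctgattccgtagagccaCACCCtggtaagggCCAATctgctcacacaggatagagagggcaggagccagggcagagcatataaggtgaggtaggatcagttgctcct
Hbb-bt: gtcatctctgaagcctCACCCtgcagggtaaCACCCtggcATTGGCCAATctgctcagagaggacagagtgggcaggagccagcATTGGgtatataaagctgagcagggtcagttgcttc
Alas2: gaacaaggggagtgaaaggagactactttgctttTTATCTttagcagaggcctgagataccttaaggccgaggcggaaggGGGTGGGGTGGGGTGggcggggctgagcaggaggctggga
In this window Hbb-bs held 1 CCAAT and 1 CACCC, and Hbb-bt held 3 CCAAT and 2 CACCC, of which 1 CCAAT and its reverse adjoin. Alas2 held 3 CACCC in tandem on the reverse strand and 1 AGATAA. Over 250 bases before the start, Hbb-bs and Hbb-bt were identical at 70.5% of 258 aligned columns. At that length Hbb-bs also held 1 AGATAA and Hbb-bt held 3 CACCC, and the other counts were unchanged. Among 32851 promoters of 250 bases, 33.8% held CCAAT, 52.0% CACCC, 9.99% AGATAA and 7.94% TGATAA, so a match is a description and not a site.

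Beside globin, levels are counts per 1000000 (CPM) of the UMIs left after the 4 adult globins. Red cell genes of 7 lists (99 genes for haem synthesis, iron, other globins, membrane, enzymes, regulators and late maturation) made up 13.7% of that RNA in few-gene and 12.6% in many-gene GFP-negative members. The RA library gave 13.6% and 12.01%, and the other barcodes 1.21% and 1.25%. The order of the classes turned when the 6 members of at least 1500 genes in each library were left out, since many-gene members then stood at 15.8% and 15.4%. Shares and counts of the many-gene class are therefore also given without them where they moved most. Ribosomal protein genes took 17.8% and 15.6% in GFP-negative members, 16.4% and 16.0% in RA members, and 22.7% and 21.4% in the other barcodes. Mitochondrial messages took 4.85% and 3.76% in GFP-negative members, 3.98% and 3.25% in RA members, and 3.10% and 2.95% in the other barcodes. In the median GFP-negative barcode the order was the reverse, 2.51% in few-gene and 2.80% in many-gene members, and 1 few-gene barcode had 80.8%.

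In both few-gene classes the 2 leading messages outside the ribosomal and mitochondrial genes were Ftl1 (ENSMUSG00000050708) and Alas2 (ENSMUSG00000025270). In few-gene members Ftl1 stood at 37990 CPM (3792 UMIs) in the GFP-negative and 38944 CPM (2492 UMIs) in the RA library, and Alas2 at 31949 and 32161 CPM. The next by mean level were Fth1, the ferritin heavy chain, Oaz1, the antizyme that limits polyamine synthesis, Fech, the enzyme that puts iron into haem, Tpt1, Ubb, a polyubiquitin gene, Mkrn1, a ubiquitin ligase gene, Rplp0 and the nuclear RNA Malat1. In many-gene members Alas2 led with 20593 and 19476 CPM, followed by Ftl1 with 15068 and 17866 CPM. Fth1, Malat1, Gpx1, Ubb, Apoe, Mkrn1, Tmsb4x and Fech completed the first 10. Apoe, a lipid carrier of macrophages among other cells, was there through 1 library, with 1955 CPM in GFP-negative and 16638 CPM in RA many-gene members. Without the members of at least 1500 genes it was at 2300 and 4554 CPM.

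The haem synthesis list took 4.04% (interval 3.92 to 4.16%) of the RNA beside globin in few-gene and 2.84% (2.77 to 2.91%) in many-gene GFP-negative members, and 4.39% and 2.82% in RA members. Without the members of at least 1500 genes, the many-gene shares were 3.62% and 3.82%. Alas2 and Fech supplied most of these UMIs. Fech was at 8165 CPM in few-gene and 7006 CPM in many-gene GFP-negative members and at 11408 and 7841 CPM in RA members. Urod, a middle enzyme of the pathway, had the opposite distribution: 5 UMIs in few-gene and 67 in many-gene GFP-negative members, and 1 and 46 in RA members.

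Alas2 was at its highest in the middle of the range of gene numbers. Its GFP-negative level was 12538 CPM at 100 to 199 genes, 23800 at 200 to 299, 37843 at 300 to 399 and 40178 at 400 to 499. It was then 32125 CPM at 500 to 699 genes, 22826 at 700 to 999 and 19034 at 1000 to under 1500. The RA library gave 14814 CPM in the lowest bin, 38878 at 400 to 499 genes and 18841 at 1000 to under 1500. Alas2 was thus highest at 400 to 499 genes in both libraries, though its counting intervals there overlapped those at 300 to 399. Fech had its highest level in the same bin, with 12971 and 14541 CPM against 1558 and 8168 CPM at 100 to 199 genes and 7117 and 6897 CPM at 1000 to under 1500. Its intervals in that highest bin overlapped those at 500 to 699 genes in both libraries.

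Iron genes took 5.32% and 2.74% of the RNA beside globin in few-gene and many-gene GFP-negative members and 5.21% and 3.02% in RA members. The many-gene shares were 3.34% and 3.48% without the members of at least 1500 genes. Ferritin messages made up almost all of it. Per barcode, few-gene members held 16.8 and 17.9 UMIs of Ftl1, and many-gene members 27.9 and 34.8, so its share of the RNA was lower in the many-gene class while its count was not. By gene number Ftl1 stood at 41546 CPM at 100 to 199 genes and 11214 CPM at 1000 to under 1500 in the GFP-negative library, and at 43749 and 13290 CPM in the RA library. Slc25a37, which brings iron into mitochondria, was at 480.9 and 611 CPM in GFP-negative and 797 and 749 CPM in RA members of the 2 classes. Tfrc, the transferrin receptor by which precursors take up iron, had 1 UMI in each GFP-negative class, 0 in RA few-gene and 3 in RA many-gene members. Ftl1 has many processed copies in the genome, so its count is uncertain.

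Enzymes of the mature red cell had the plainest many-gene pattern, with 1.18% of the RNA beside globin in few-gene and 2.72% in many-gene GFP-negative members and 0.930% and 2.07% in RA members. In many-gene members of under 1500 genes the shares were 3.504% and 2.80%. Gpx1 (ENSMUSG00000063856), a glutathione peroxidase, had 265 UMIs (2655 CPM) in few-gene and 2444 UMIs (12345 CPM) in many-gene GFP-negative members. In RA members it had 98 UMIs (1531 CPM) and 1241 UMIs (7322 CPM). The ratio of the classes was 4.64-fold and 4.76-fold. With the division moved to 1000 genes, where 6 of 16 GFP-negative many-gene members had at least 1500 genes, the log2 ratio in that library was -0.22 for Gpx1 and -0.59 for Car2. Bpgm, whose product makes the phosphate that lowers oxygen affinity, was at 2054 and 4783 CPM in GFP-negative and 1672 and 3593 CPM in RA members. Prdx2, a peroxiredoxin abundant in red cells, was at 5500 and 6107 CPM in GFP-negative and 4438 and 5924 CPM in RA members. It was at 7753 and 8033 CPM in many-gene members of under 1500 genes, with log2 ratios of 0.49 and 0.85, still under the 2-fold bound. Catalase (Cat) had 7 and 44 UMIs in GFP-negative and 5 and 49 in RA members. Hagh, a glyoxalase, had 15 and 99 UMIs, and 13 and 69.

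Membrane genes were rare in either class, at 0.0852% and 0.274% of the RNA beside globin in GFP-negative and 0.144% and 0.238% in RA members. The many-gene shares were 0.351% and 0.315% without the members of at least 1500 genes. Slc4a1, the band 3 anion exchanger, had 8 UMIs in few-gene and 40 in many-gene GFP-negative members, and 2 and 52 in RA members. It was rare outside members, at 0.0290 and 0.290 CPM in the other barcodes. Epb41, the protein 4.1 of the membrane skeleton, had 27 and 92 UMIs in GFP-negative and 37 and 74 in RA members.

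**Figure D3:**
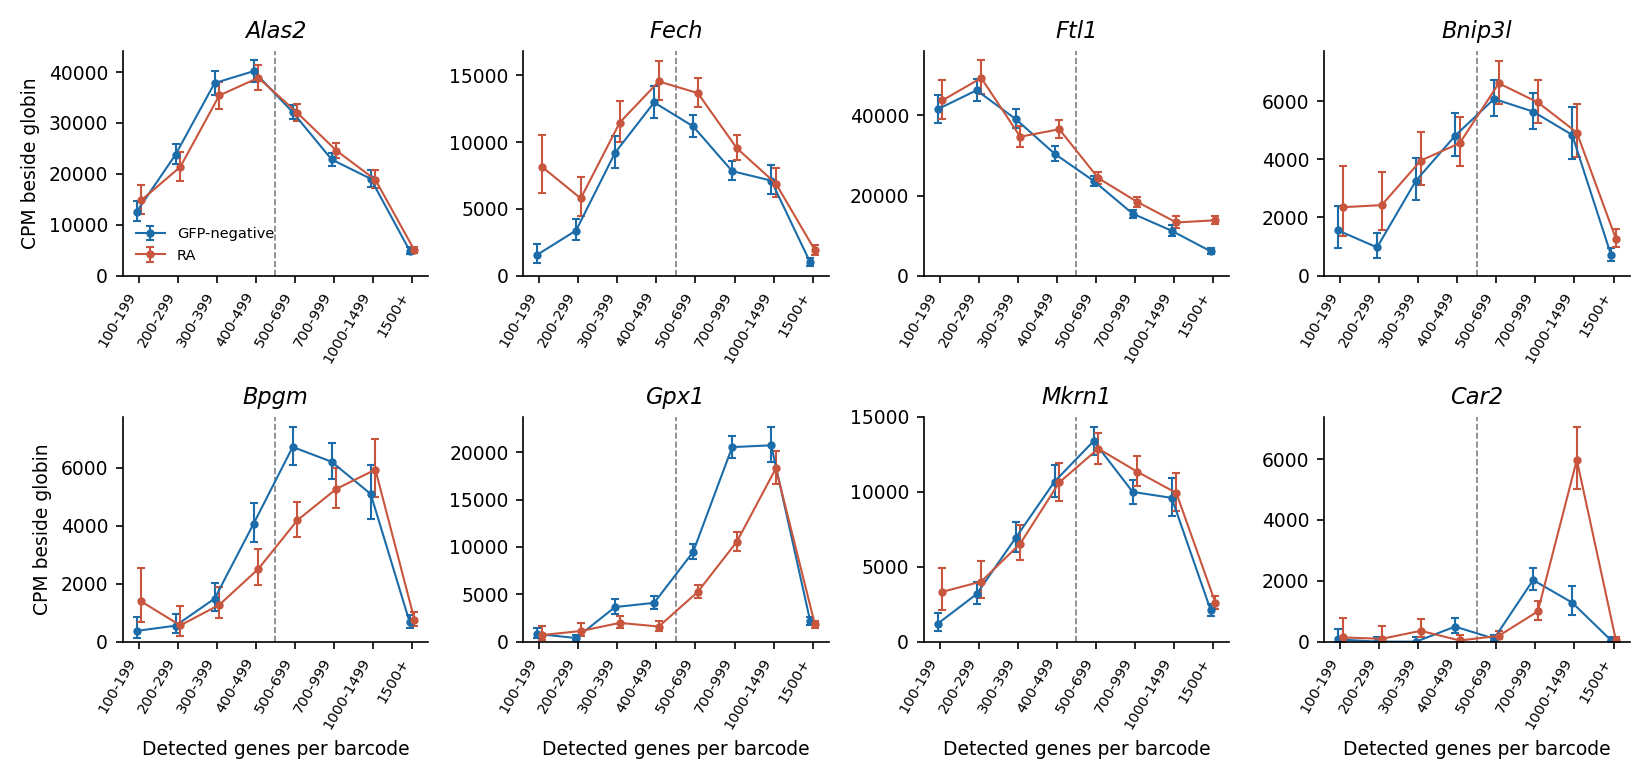
CPM beside globin of 8 red cell genes by bin of detected genes per barcode (lowest 100 to 199, highest 1500 or more), summed over barcodes, with exact Poisson 95% intervals, for the GFP-negative and RA libraries. Ftl1 is highest at 200 to 299 genes and lowest from 1000 genes up, and Alas2 and Fech are highest at 400 to 499 genes. The intervals of these 3 genes in their highest bin overlap those of a neighbouring bin. Gpx1 and Car2 are highest from 700 to under 1500 genes. All 8 genes except Ftl1 in RA are lower at 1500 or more than at 1000 to under 1500.

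Genes that act late in maturation took 2.98% and 3.90% of the RNA beside globin in GFP-negative and 2.86% and 3.78% in RA members, or 4.91% and 4.90% in many-gene members of under 1500 genes. Bnip3l, which tags mitochondria for removal, was at 3056 and 4394 CPM in GFP-negative and 3766 and 4472 CPM in RA members. Mkrn1 was at 6632 and 8951 CPM and 7439 and 8732 CPM. Trim10, a late erythroid gene, had 1 UMI in each few-gene class and 27 and 31 in the many-gene classes. Tmcc2 had 41 and 79 UMIs in many-gene members, but 1 barcode supplied 82.9% and 57.0% of them.

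Regulators of red cell precursors were few in UMIs, at 0.0321% and 0.0409% of the RNA beside globin in GFP-negative and 0.0281% and 0.0543% in RA members. The other barcodes were lower, at 0.00853% and 0.0105%. Lmo2, an adaptor of the GATA1 complex, and E2f2, a cell cycle factor of late precursors, had the most UMIs in many-gene members. Lmo2 had 3 UMIs in few-gene and 18 in many-gene GFP-negative members, and 5 and 44 in RA members. E2f2 had 8 and 37, and 2 and 19. Gata1 had 1 UMI in each GFP-negative class and 0 and 2 in RA members, Klf1 1 and 2 and 1 and 4, and Nfe2 0 in all classes but RA many-gene members, with 1. The receptor genes Kit and Epor of early precursors had at most 3 UMIs in any class. Cell cycle genes took 0.125% and 0.158% of the RNA beside globin in GFP-negative and 0.0860% and 0.132% in RA members, against 0.126% and 0.155% in the other barcodes. The RA few-gene share (interval 0.0648 to 0.112%) lay below that of its other barcodes. Without the members of at least 1500 genes the GFP-negative many-gene share was 0.193% (0.171 to 0.217%), above that of its other barcodes, and the RA one 0.158%. Ube2c, a ubiquitin-conjugating enzyme of mitosis, had 32 UMIs in few-gene and 149 in many-gene GFP-negative members (2.32-fold in CPM), and 13 and 67 in RA members. In GFP-negative many-gene members of under 1500 genes it alone supplied 144 of the 283 cell cycle UMIs. The share of 0.193% thus rests largely on 1 gene and is not a rise of the list as a whole. Mki67 had 10 and 6 UMIs, and 2 and 3. Globins other than the 4 adult ones took 0.0471% and 0.0520%, and 0.0422% and 0.0354%. These were nearly all Hbq1a and Hbq1b, the theta globins, while embryonic Hbb-y, Hbb-bh1 and Hba-x had at most 4 UMIs in any class.

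A gene was called different between classes when its CPM differed at least 2-fold and the exact 95% interval of the ratio left out equality, among genes with at least 20 UMIs in both classes together. As the division by gene number made the classes, these calls describe them. In the GFP-negative library 136 of 1815 genes (7.49%) were called, 116 (6.39%) higher and 20 (1.1%) lower in many-gene members. In the RA library 250 of 1540 (16.2%) were called, 198 (12.9%) higher and 52 (3.38%) lower. Of the red cell lists, 18 of 47 measured genes were higher and 1 was lower in the GFP-negative library, with a median log2 ratio of 0.91 against 0.13 for all genes tested. In the RA library 16 of 48 were higher and 1 was lower, with a median of 0.43 against 0.08. The gene that was lower was Ftl1 in both. Of the enzymes, 8 of 10 and 5 of 10 were higher, and of haem synthesis genes 2 of 6 in each library. Late maturation genes gave 5 of 18 and 6 of 19.

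On the scale of all UMIs, globin included, nearly every difference pointed to the many-gene class. Of 1815 genes 877 were higher and 2 lower in the GFP-negative library, and of 1540 genes 723 and 0 in the RA library. The median of all genes tested then moved to 1.06 in each. Every ratio here is thus relative to the RNA beside globin. Ftl1 had log2 ratios of -0.40 and -0.14 on that scale.

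Called the same way in both libraries were 27 genes higher (2.05% of 1316) and 7 lower (0.532%). Red cell genes among those higher included Urod, Slc4a1, Car2, Gpx1, Bpgm, Blvrb, Cat, Tmcc2, Trim10 and Rnf10. Mpp1, a membrane scaffold of red cells, had 5 UMIs in few-gene and 127 in many-gene GFP-negative members, and 6 and 84 in RA members. The log2 ratios were 3.55 (interval 2.42 to 5.33) and 2.30 (1.22 to 3.89). Outside the rule for named genes and chosen after their values were seen, Taldo1, an enzyme of the pentose phosphate pathway, was at 27 and 172 UMIs and 19 and 150, and Glrx5, a glutaredoxin of iron-sulphur cluster assembly, at 17 and 103 and 13 and 87. Iscu, the scaffold of that assembly, had log2 ratios of 1.06 and 1.53. Rsad2, an interferon-induced gene, had 8 and 74 UMIs and 3 and 86, of which 1 RA barcode supplied 32.6%.

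The genes lower in both included Ftl1, Rpl41, Gm10073, Gm10076, Gm10116 and Gm26619. Apart from Ftl1, these are small ribosomal genes or predicted genes. Their reads may be shared with near-identical copies, which makes their counts uncertain. Rpl41 had log2 ratios of -1.30 and -1.14.

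Without the members of at least 1500 genes, 53 genes (4.94% of 1072) were higher in both libraries, including 25 of the 27, and 1 (0.0933%) was lower, Gm10116. In the GFP-negative library 136 of 1483 (9.17%) were then called, 112 (7.55%) higher and 24 (1.62%) lower. In the RA library 129 of 1169 (11%) were, 107 (9.15%) higher and 22 (1.88%) lower. Ftl1 then had log2 ratios of -1.06 and -0.98, just under the 2-fold bound in RA. Of the red cell lists, 24 of 47 and 20 of 46 measured genes were higher without them. Alad of haem synthesis, Lmo2, and Gabarapl2 and Map1lc3b, which act in autophagy, were among the genes then higher in both, and are named after their values were seen.

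**Figure D4:**
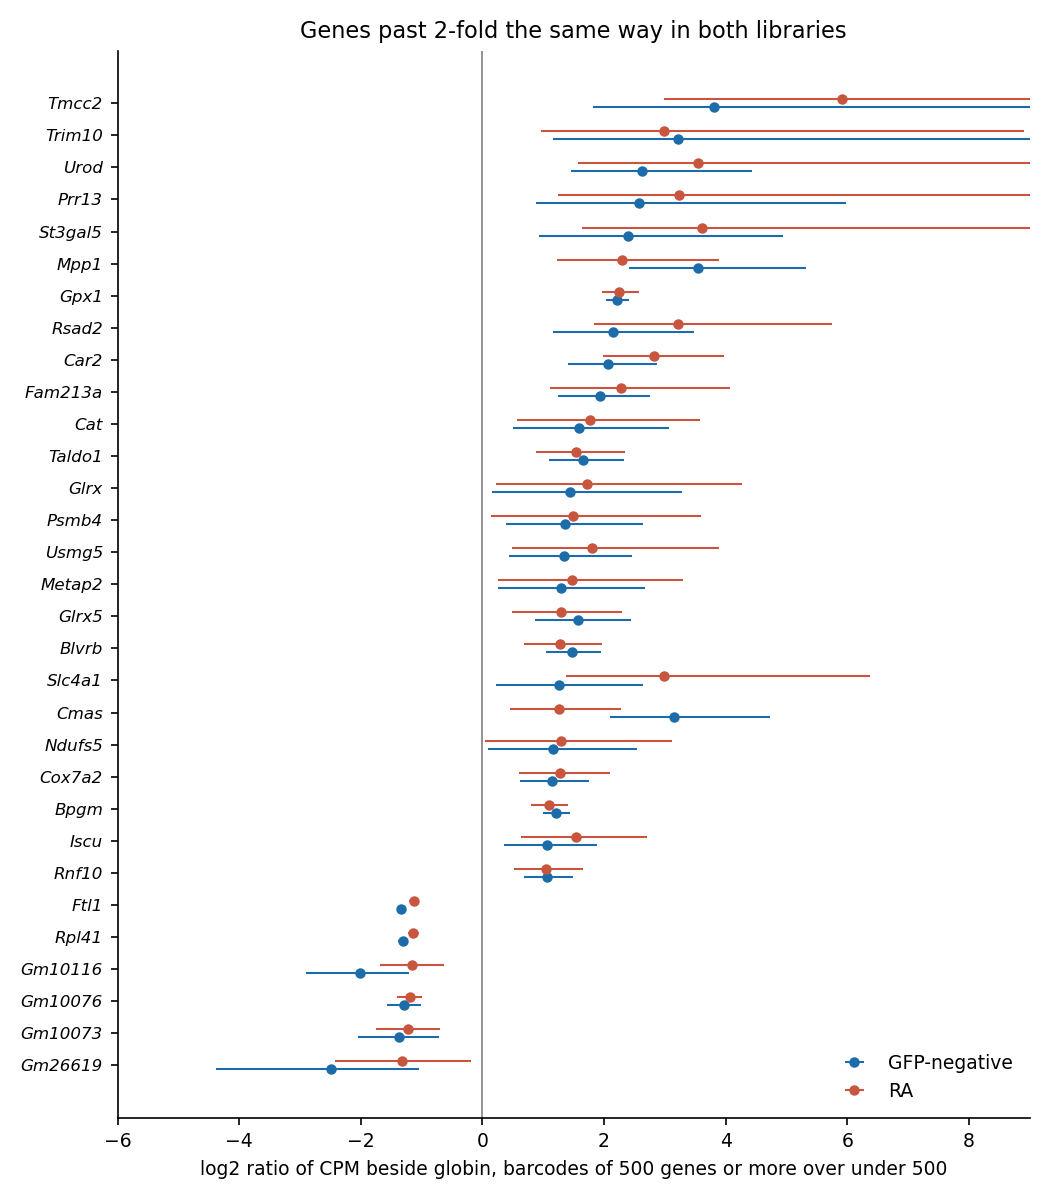
Log2 ratio of CPM beside globin, many-gene over few-gene members, for 31 of the 34 genes called the same way in the GFP-negative and RA libraries, with exact 95% intervals (cut at the axis limit where they reach beyond it). The 25 higher genes drawn lie right of 0 in both libraries and the 6 lower genes left of it.

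Markers of other cell types were found in the RNA beside globin at levels not far from those in the rest of each library. The 9 lists (66 genes) took 2.34% in few-gene and 2.64% in many-gene GFP-negative members against 3.47% in the other barcodes, and 2.47%, 2.53% and 3.31% in RA. In the few-gene members the level was thus 67.5% and 74.5% of that in the rest, while the haem synthesis list was at 4.04% and 4.39% against 0.0407% and 0.0491%. Summed over a class, cardiomyocyte, fibroblast, smooth muscle and other markers were present together. Per few-gene member each was at a low count, with a median of 0 UMIs for endothelial, macrophage, other leukocyte and glial markers in both libraries. Fibroblast markers had a median of 6 UMIs per few-gene member in both libraries. Platelet or megakaryocyte markers had 0 UMIs in the few-gene members of both libraries, with intervals up to 0.0037% and 0.0058%. In the other barcodes they took 0.00136% and 0.00071%, inside those intervals, so the 0 does not show a lower level. How much of the RNA beside globin came from outside the cell was not tested.

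**Figure D5:**
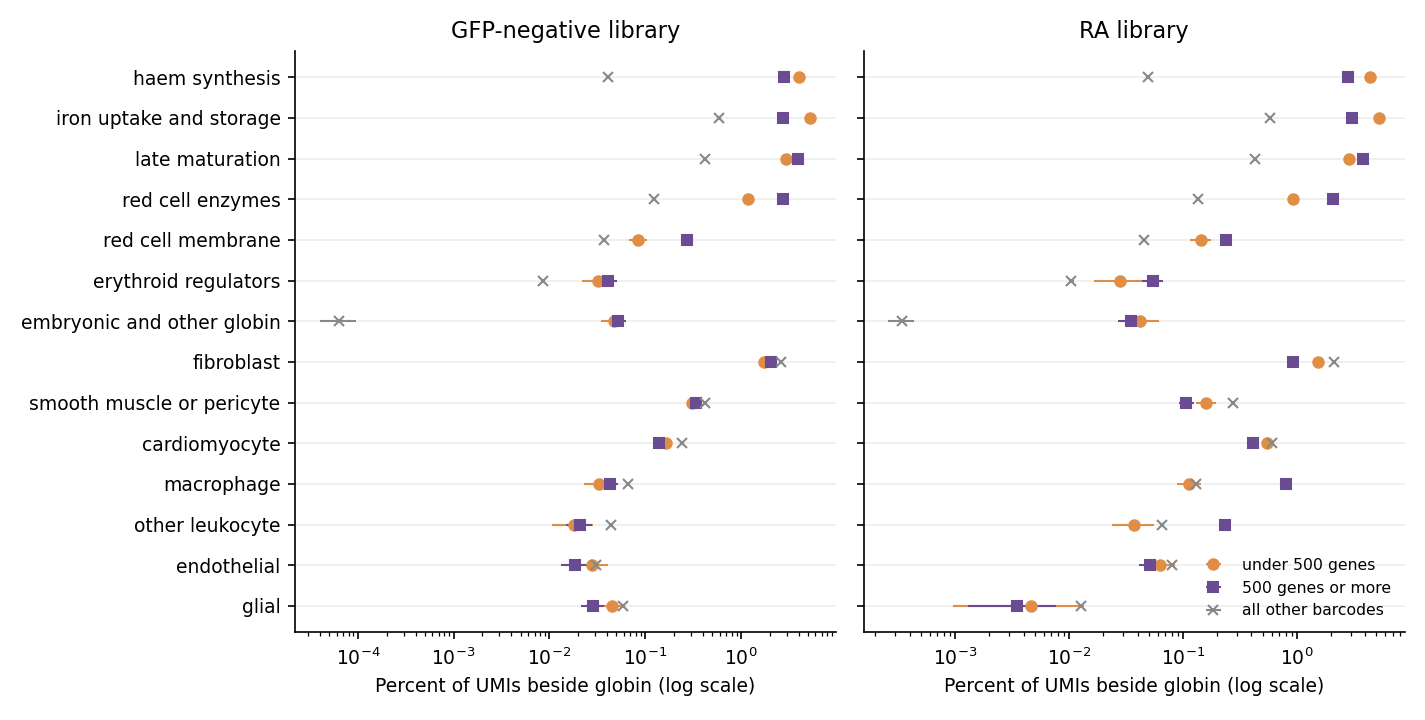
Percent of UMIs beside globin (log scale) for 14 gene lists in few-gene members (circles), many-gene members (squares) and all other barcodes (crosses) of the GFP-negative and RA libraries, with exact Clopper-Pearson 95% intervals. Haem synthesis lies far above the other barcodes in both classes, fibroblast and cardiomyocyte markers lie below them, and macrophage markers stand out in RA many-gene members.

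Barcodes with at least 1500 genes formed their own group of 6 in each library, with 2128 to 3192 genes in GFP-negative and 2329 to 2848 in RA. Each held red cell RNA, with 25 to 65 UMIs of Alas2 in the GFP-negative and 32 to 74 in the RA library, and 55.8 to 74.4% and 58.7 to 66.4% globin. Each also held markers of another type, and the type differed between the libraries. The GFP-negative barcodes carried 290, 726, 239, 196 and 295 UMIs of fibroblast markers in 5 of them, of which the first also had 207 of smooth muscle or pericyte markers. The remaining barcode had 30 and, in addition, 15 of endothelial markers. None had more than 3 macrophage UMIs. The RA barcodes carried 196, 283, 184, 204, 206 and 165 UMIs of macrophage markers and 14 to 33 of fibroblast markers, and 1 of them had 223 of other leukocyte markers.

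At least 50 macrophage UMIs, a bound set after the values were seen, were thus in 6 of 6 RA barcodes of this group and in 0 of the 220 other RA members. The group was cut by gene number, which follows the UMIs beside globin. The contrast therefore follows in part from that cut and is a description only. Among the 1214 RA barcodes with under 10% globin, 8.07% (6.60 to 9.75%) reached it. At least 50 fibroblast UMIs were in 5 of 6 GFP-negative barcodes of the group and in 0 of 6 in RA. Outside the group 2 of 327 GFP-negative members, with up to 153 UMIs, and 0 of 220 RA members reached that bound. Of the barcodes under 10% globin, 75.6% and 59.5% did. Between 10 and 50% globin, outside the rule, 4 of 10 RA barcodes held at least 50 macrophage UMIs and 2 of 20 GFP-negative ones did. No doublet caller was run, and whether these droplets held more than 1 cell was not tested.

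The group set the macrophage signal of the many-gene class. It carried 91.2% of the macrophage UMIs and 87.3% of the other leukocyte UMIs of RA many-gene members, and 44.0% of the fibroblast UMIs of GFP-negative ones. Macrophage markers took 0.114% in few-gene and 0.801% in many-gene RA members, and 0.104% in the many-gene class without the group. C1qa, a complement gene of macrophages, had 12 UMIs in few-gene and 383 in many-gene RA members, and 32 without the group. All 7 measured macrophage markers were higher in RA many-gene members with the group, and 0 of 4 without it.

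Between the libraries, matrix and atrial genes were among those that differed within each class of members. In few-gene members 91 of 1003 genes (9.07%) were called, 37 (3.69%) higher in GFP-negative and 54 (5.38%) higher in RA. In many-gene members 420 of 2289 (18.3%) were called, 195 (8.52%) and 225 (9.83%). Without the members of at least 1500 genes these were 138 of 1607 (8.59%), with 58 (3.61%) and 80 (4.98%). In both classes 19 of 1000 (1.9%) were higher in GFP-negative and 33 (3.3%) in RA. Of these, 0 were in a red cell list, whose measured genes were 31 of the 1003 in few-gene members.

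Elastin (Eln) had the most UMIs of them in GFP-negative members, with 5801 and 6728 CPM in few-gene and many-gene GFP-negative members against 406 and 325 CPM in RA. The matrix genes Fbln5 (37 and 59 UMIs against 3 and 5) and Lox (19 and 26 UMIs against 2 and 2) were also on the GFP-negative side. Among the 33 genes on the RA side were the atrial genes Nppa and Myl7. Nppa had 210 and 152 CPM in GFP-negative and 734 and 531 CPM in RA, and Myl7 641 and 525 CPM against 1703 and 1652 CPM. Listed markers of other cell types, these 2 included, were 8 of the 33, and 3 of the 19 on the GFP-negative side. Among all genes measured they were a smaller share, 20 of 1003 in few-gene and 31 of 2289 in many-gene members. Most genes of either side were nonetheless in no such list. Of the 19 and 33 genes, 18 and 31 lay on the same side in the other barcodes of the libraries, and 13 and 21 were called there. The share of all tested genes on the same side is not given here. In the other barcodes Eln was at 8494 and 858 CPM.

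Of 31 red cell genes measured in few-gene members 1 was higher in GFP-negative (Ube2l6) and 1 in RA (Epb41), with a median log2 ratio of 0.07 against -0.03 for all genes tested. Of 49 measured in many-gene members 0 were higher in GFP-negative and 4 in RA (Tmcc2, Lmo2 and Xpo7 among them), with a median of 0.03 against 0.01. The many-gene count was again 0 and 4 of 49 without the members of at least 1500 genes, against 8.59% of all genes. Of the markers of other cell types, 3 of 20 measured were higher in GFP-negative and 8 in RA in few-gene members, and 10 of 31 and 16 in many-gene members. The latter were 2 of 26 and 10 among members of under 1500 genes, and the cardiomyocyte markers, with 6 of 6 higher in RA, made up most of the 10. No UMI of the GFP feature or of Hcn4 was found in a member of either library. The other barcodes held 19 and 14 UMIs of GFP in all, only 0.551 and 0.811 CPM, and 4 and 0 of Hcn4. No class of members held more than 197976 UMIs beside globin. At that depth such levels give almost no UMIs, so the absence does not set members apart from other barcodes.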

How the data were processed

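Single cells of 3 libraries were profiled with 10x Genomics chemistry, 1 library per group. The deposited matrices hold whole-number UMI counts per gene and barcode. The submitters' processing notes name Cell Ranger and the build mm9; versions and settings are not given in the sources used here. Of 27998 gene IDs, 27645 were found in the RefSeq gene table given, and 1 listed gene (Ahsp) had no count.

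UMIs were summed per library and class and expressed as CPM, counts per 1000000 UMIs beside the 4 adult globins. Log2 ratios had 0.5 UMIs added to each class. Intervals at 95% were exact binomial for shares, exact Poisson for CPM and exact conditional binomial for ratios. They cover counting error only. Thinning drew 1000 UMIs per barcode with a fixed seed. Calculations used Python 3.11.15, numpy 2.4.6, scipy 1.17.1 and pandas 2.3.3, and figures matplotlib 3.10.9. Only the ratios between classes and their calls were tested on simulated data. The simulated counts were drawn from class sums and held no differences between single barcodes.

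Members, lists and rules were chosen with earlier results of these data known. Named were the 10 highest genes per class outside ribosomal and mitochondrial genes, the 10 highest and 10 lowest ratios called in both libraries, the 5 highest and 5 lowest GFP-negative to RA ratios called in both classes, and any measured list gene. Alternatives were other globin and gene bounds, other scales and UMI minimums, and leaving out barcodes of at least 1500 genes. Some genes that meet these rules are not reported here.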

Additional observations from a re-analysis of the deposited data

Results flagged for a closer look

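Fibroblast markers moved in opposite directions between the classes of the 2 libraries. The many-gene minus few-gene share of the RNA beside globin was 0.293 percentage points in GFP-negative and -0.614 in RA. With 1 library per group the difference between these was not tested. The 6 GFP-negative members of at least 1500 genes held 44.0% of the fibroblast UMIs of their class. Without the 6 such barcodes of each library the many-gene share was 1.54% in GFP-negative and 1.24% in RA, against 1.75% and 1.53% in few-gene members, so the direction was then the same in both.

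The GFP-positive library, outside the comparisons above, held 4 red cell barcodes of 3346 (0.120%, exact interval 0.0326 to 0.306%). They had 353 to 934 genes and 89.1 to 94.4% globin.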

How the results depend on the processing

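Several values moved with the choice of barcodes and scale, and unless the construction shows it the cause was not tested. With a globin bound of 70%, the red cell gene share of many-gene members was 15.8% in GFP-negative and 15.4% in RA. The other cell type share was 2.06% and 2.15%, and the ribosomal share 14.6% in each. At that bound 129 of 1169 RA genes passed 2-fold between classes, and 135 of 1615 between libraries in many-gene members. With a bound of 30%, the red cell gene shares were 9.98% and 8.42%, the ribosomal shares 17.8% in each, and the RA other cell type share 3.0%.

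Divided at 1000 genes, 16 GFP-negative and 15 RA members were many-gene and 211 RA members few-gene. In few-gene members the red cell gene share was 15.01% and 14.6%, the other cell type share 2.19% and 2.30%, and the ribosomal share 16.2% and 15.6%. In many-gene members these were 6.87% and 8.30%, 3.56% and 2.94%, and 16.8% and 17.2%. Between classes 261 of 1815 and 458 of 1540 genes passed 2-fold, and between libraries 196 of 2179 in few-gene members. The GFP-negative log2 ratio then reversed for Tmcc2 (-3.24), Car2 (-0.59), Gpx1 (-0.22) and Rsad2 (-1.08).

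As means of single barcodes, the red cell gene share was 12.5% and 12.6% in few-gene and 15.3% and 14.6% in many-gene members, the ribosomal share 18.9% and 16.9%, and 14.9% and 15.04%, and the many-gene other cell type share 2.21% and 2.29%. With CPM of all UMIs, 879 of 1815 and 723 of 1540 genes passed 2-fold between classes. With a minimum of 5 UMIs, 210 of 6018 and 395 of 5265 measured genes did between classes. The main rule measured 1815 and 1540. Of those called, 67.6% and 61.8% were higher in many-gene members, against 85.3% and 79.2%. Between libraries 191 of 3916 passed in few-gene and 833 of 6946 in many-gene members. With 5 UMIs added, 80 of 1815 and 159 of 1540 passed between classes.

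Leaving out members of at least 1500 genes was chosen after seeing the data. The many-gene red cell gene share was then 15.8% and 15.4%, the other cell type share 2.13% and 2.15%, and the ribosomal share 14.6% in each. Between classes 129 of 1169 RA genes passed, and between libraries 138 of 1607 in many-gene members. Removing single barcodes of that group, and any batch of extraction or sequencing, was not analysed here.

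No paired analysis was possible because each group has 1 library, and no alternative left out a replicate. Depth limits rare genes: few-gene members held 99815 and 63990 UMIs beside globin in all, so transcription factors and membrane genes rest on a handful of UMIs. The number of detected genes follows depth, so that the classes differ in depth as well as in genes.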
